A study of Drosophila melanogaster with 4 samples.

Results

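The genes described here handle stored and circulating fat in Drosophila melanogaster. They are the lipolysis genes bmm and CG5966, the synthesis genes Lpin, ATPCL and Kdsr, the lipid droplet gene Jabba and the lipoprotein gene apolpp. These 7 genes were chosen by name from 2377 genes that the array annotation lists alone on a spot. They were picked with their ratios on these arrays already known, so the values below describe them and support no test of them. All 7 were measured, and no gene was removed for a low value.

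Adult Oregon-R females aged 10 to 20 days were sprayed with an ethyl acetate extract of seeds of Piper nigrum, the black pepper plant, dissolved in 99% ethanol at 0.9 mg/mL. The volume was 2 mL, delivered in a Potter's tower, a device for even spraying. The ethanol females got the same volume of the solvent, and RNA was taken after 4 h. Each sample was a pool of about 240 females treated together, and the labels number the 2 pool pairs 1 and 3. Each pair was hybridised to 2 arrays with the Cy3 and Cy5 dyes exchanged, which gives 4 arrays and n = 2 pools. Whole flies were used, so fewer cells of a type and less RNA per cell cannot be told apart.

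All values are log2 ratios that the authors deposited, averaged over the spots of a gene and read as extract over ethanol. Which channel was the numerator is not given in the sources used here, so this direction is assumed, and ethanol on top would turn every sign. A log base of 2 is also assumed. Had the ratios been deposited by dye, the extract's effect would instead be in the values with the signs of the 2 reverse-label arrays turned, which are given further below. Values are therefore stated as above or below 0, with the standard error (SE) of limma, a linear model that shares its variance estimate across all features.

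Each gene was carried by 2 adjacent spots, except ATPCL, which had 4. The 4 arrays held 16896 spots each, with medians between -0.00218 and -0.000152 and a scaled median absolute deviation of 0.275 to 0.387. The arrays of a dye swap correlated weakly across the named genes, at Pearson r = 0.0534 for pool 1 and 0.104 for pool 3. Genes are not independent replicates, and these values describe the arrays only.

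Insects keep most of their energy as triacylglycerol in lipid droplets of the fat body, a tissue that combines roles of liver and adipose tissue. Lipases on the droplet release fatty acids, lipin and acyltransferases rebuild the store, and lipophorin, a lipoprotein of the haemolymph, carries diacylglycerol and other lipids between gut, fat body and the consuming tissues. Fasting is known to mobilise these stores and to change the transcription of several of their genes.

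The lipases and lipin lay above 0 on every array, and the droplet protein, the lipoprotein precursor and the sphingolipid enzyme lay below 0 on every array. CG5966 had the highest mean of the 7 genes, 0.90 ± 0.17 (SE, n = 2 pools), and apolpp the lowest, -0.54 ± 0.18. ATPCL was the gene with no common sign, at 0.03 ± 0.15. Of the 7 genes, 3 were above 0 on 4 of 4 arrays, where 8.83% of all genes with a single name were, and 3 were below 0 on 4 of 4 arrays, where 7.99% were. None of the 7 passed limma's test over all 13607 features at an adjusted p of 0.05 (Benjamini-Hochberg), a test that 0.0441% of features passed. At an unadjusted limma p under 0.05 there were 6 of the 7 genes, and 999 of all 13607 features. Since the genes were chosen with these same ratios known, nothing is read from the counts.

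**Figure D1:**
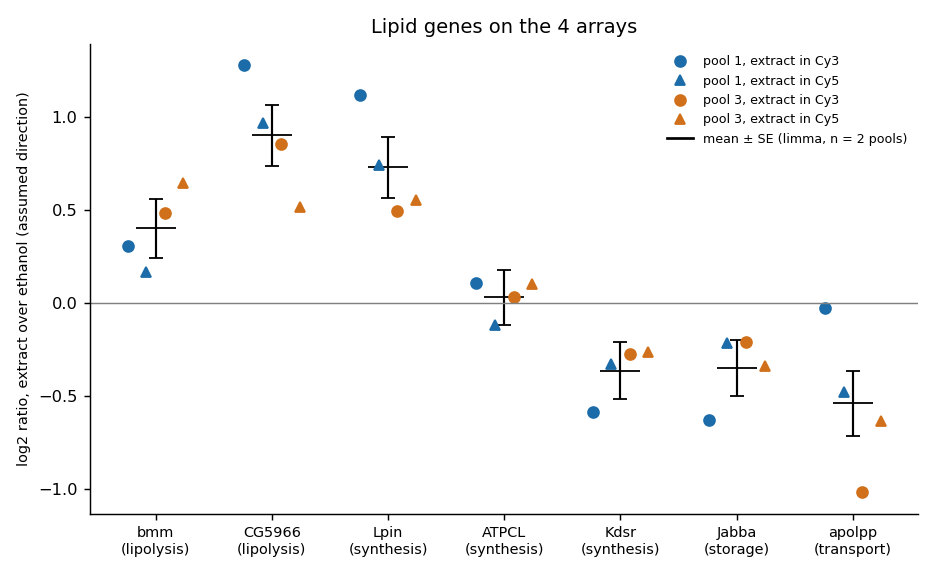
Log2 ratio of each lipid gene on each of the 4 arrays (vertical axis), with colours for the pool, circles for extract in Cy3, triangles for extract in Cy5, and bars for the mean ± SE of limma (n = 2 pools). bmm, CG5966 and Lpin lie above 0 on all 4 arrays, Kdsr, Jabba and apolpp lie below 0 on all 4, and ATPCL straddles 0.

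CG5966 encodes a predicted triacylglycerol lipase. Its ratio was 1.28 with extract in Cy3 and 0.97 with extract in Cy5 in pool 1, and 0.86 and 0.52 on the matching arrays of pool 3. The arrays of pool 1 were both higher than those of pool 3, so the pools did not overlap, and their means were 1.12 and 0.69. That gap of 0.433 was at percentile 87.4 of all named genes. The 2 arrays of a pool repeat the same pair of samples. How many named genes had pools without overlap was not counted, so nothing is read from it here or in the genes below. The mean corresponds to a 1.87-fold ratio and, as deposited, ranked 7 from the top among the 2377 named genes (percentile 99.7, and 87.3 with the reverse-label arrays turned). CG5966 was also the 1 gene of the 7 at 1.5-fold or more in both pools, a size that 0.421% of named genes reached in one direction.

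bmm (brummer) is the fly counterpart of adipose triglyceride lipase and acts on the surface of lipid droplets. It stood at 0.31 and 0.17 in pool 1 and at 0.48 and 0.65 in pool 3, extract in Cy3 first. Here pool 3 was the higher one, again without overlap, with pool means of 0.24 and 0.57 for pools 1 and 3. The mean was 0.40 ± 0.16, a 1.32-fold ratio, at rank 45 from the top (percentile 98.1, and 47.5 turned). The 2 lipases therefore differed in which pool gave the larger ratio. CG5966 exceeded bmm by 0.88 in pool 1 and by 0.12 in pool 3, and on 1 of 4 arrays, the Cy5 array of pool 3, bmm was the higher.

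Lpin encodes lipin, the phosphatidate phosphatase that makes diacylglycerol for triacylglycerol and phospholipid synthesis and that also acts in the nucleus as a regulator of transcription. Its ratios were 1.12 and 0.74 in pool 1 and 0.50 and 0.56 in pool 3. Both arrays of pool 1 were above both of pool 3, the same order of pools as in CG5966. The mean was 0.73 ± 0.16, a 1.66-fold ratio, at rank 12 from the top (percentile 99.5, and 71.3 turned). The pool means were 0.93 for pool 1 and 0.53 for pool 3.

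ATPCL encodes ATP citrate lyase, which supplies the cytosolic acetyl-CoA from which fatty acids are built. It stood at 0.11 and -0.12 in pool 1 and at 0.03 and 0.10 in pool 3. The pools overlapped and the values fell on both sides of 0, at rank 1027 from the top. ATPCL was the 1 gene of the 7 with 2 sets of spots, and the sets were alike in the mean and unlike by array. The spots of clone AI455129 averaged 0.03 and the other set, for which no clone is listed, 0.04. On the Cy3 array of pool 1 they read -0.19 and 0.40, and on the Cy5 array of pool 3 they read 0.45 and -0.24. Adjacent spots of a set also lay apart, by up to 0.596 for clone AI455129 and 0.593 for the other set. A difference between the sets therefore cannot be told apart from the spread between spots.

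Kdsr encodes 3-ketodihydrosphingosine reductase, an early enzyme of sphingolipid synthesis. Its ratios were -0.59 and -0.33 in pool 1 and -0.27 and -0.26 in pool 3. Pool 1 was the lower one without overlap, and the mean was -0.36 ± 0.15, or 1.29-fold lower with extract under the assumed direction. The 3 synthesis genes thus stood at different places: Lpin exceeded ATPCL by 0.70 and Kdsr by 1.09 on average, with both differences above 0 on 4 of 4 arrays as deposited. With the reverse-label arrays turned, these differences were 0.04 and 0.15.

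Jabba encodes a lipid droplet protein that anchors histones on the droplet and is known for roles in fat storage. It stood at -0.63 and -0.21 in pool 1 and at -0.21 and -0.34 in pool 3. The pools overlapped, since only the Cy3 array of pool 1 lay apart from the others. The mean was -0.35 ± 0.15, at rank 32 from the bottom (percentile 1.35, and 29.7 turned). Kdsr was at rank 25 from the bottom (percentile 1.05, and 30.8 turned). Across the 4 arrays Jabba and Kdsr were the closest of the 7 genes, at a Euclidean distance of 0.155 on the log2 scale.

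apolpp encodes the precursor of the apolipophorins, the structural proteins of lipophorin, made in the fat body. Its ratios were -0.03 and -0.48 in pool 1 and -1.02 and -0.64 in pool 3. Pool 3 was the lower one without overlap, and the Cy3 array of pool 1 was close to 0. The pool means of -0.25 and -0.83, for pools 1 and 3, differed by 0.574, more than in the other 6 genes. That gap was at percentile 95 of all named genes, whose median gap between pools was 0.177. The mean of -0.54 ± 0.18 was at rank 9 from the bottom (percentile 0.379, and 54.7 turned). By pool, apolpp was at percentile 11.6 in pool 1 and 0.168 in pool 3. The other fat body markers could hardly be followed: of 9 listed, 2 were measured, apolpp itself and Fbp2 at -0.18 ± 0.15. The part of fat body content in the apolpp ratio was not tested. Of the other tissue lists, the gut held mag at -0.30 ± 0.15 as its 1 measured gene of 3, and the ovary yl at -0.01 ± 0.16 as its 1 of 6. Muscle held 3 of 4, Act88F at 1.13, up at 0.18 and Tm2 at -0.01, and oenocytes 0 of 3. Ratios carry no levels, so the presence of a tissue could not be checked from its markers.

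**Figure D2:**
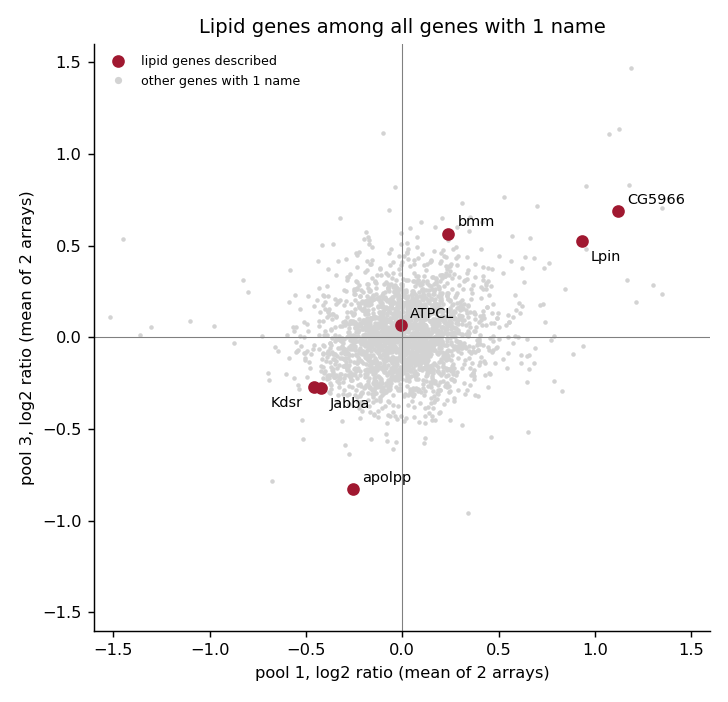
Pool 3 against pool 1 (mean log2 ratio of 2 arrays each) for all genes with a single name in grey and the 7 lipid genes in red, with 5 genes beyond the axis limit of 1.6 not drawn. CG5966 and Lpin lie further out in pool 1, bmm and apolpp further out in pool 3, and Kdsr and Jabba nearly coincide.

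By role, the 2 lipolysis genes averaged 0.65, the 3 synthesis genes 0.13, the storage gene Jabba -0.35 and the transport gene apolpp -0.54. The lipolysis mean ran from 0.57 to 0.79 over the arrays. It averages 2 chosen genes with opposite orders of the pools, so nothing is read from that range or that order. The lipolysis mean exceeded apolpp by 0.82 and 1.05 in pool 1 and by 1.69 and 1.22 in pool 3. It exceeded Jabba by 1.42 and 0.78 in pool 1 and by 0.88 and 0.92 in pool 3. These differences were above 0 on 4 of 4 arrays as deposited. With the reverse-label arrays turned, the mean difference was 0.06 from apolpp, against 1.19 as deposited, and 0.15 from Jabba, against 1 as deposited. They compare genes chosen with their ratios known and were not tested.

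The single spots showed how much of each value rested on 1 spot. Both spots of bmm, CG5966 and Lpin were above 0 on 4 of 4 arrays, and both spots of Kdsr were below 0 on 4 of 4. For apolpp, spot 858 averaged -0.73 and spot 857 -0.35, and spot 857 read -0.05 and 0.02 on the arrays of pool 1. On the Cy5 array of pool 1 the other apolpp spot read -0.97, so that array's ratio came from 1 of its 2 spots. For Jabba, spot 10325 was below 0 on 4 of 4 arrays and averaged -0.43. Spot 10326 averaged -0.27 and read 0.02 on the Cy5 array of pool 3, where spot 10325 read -0.70. The mean gap between adjacent spots was 0.119 for bmm and 0.127 for CG5966, and 0.346 for Jabba and 0.409 for apolpp. Over 2833 adjacent pairs of a single gene the median gap was 0.305, with quartiles of 0.199 and 0.437. The lipase spots therefore repeated more closely than most, and the apolpp spots lay at percentile 70.9.

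**Figure D3:**
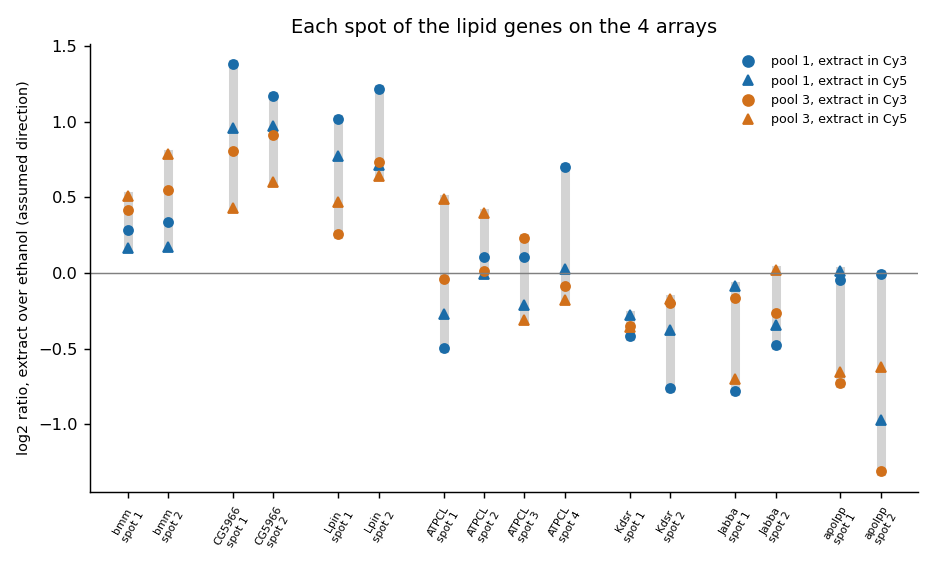
Log2 ratio of every spot of the 7 lipid genes on each array, with colours and shapes as for the genes and a grey bar from the lowest to the highest array. The spots of bmm, CG5966, Lpin and Kdsr keep their sign, the spots of ATPCL spread over both sides of 0, and 1 spot each of Jabba and apolpp crosses 0 on 1 array.

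The dye swap separates an effect that follows the RNA from one that follows the dye, once it is known how ratios were deposited. The means over the Cy3 and the Cy5 arrays were close for bmm (0.40 and 0.41) and apolpp (-0.52 and -0.56). They were further apart for CG5966 (1.07 and 0.74) and Lpin (0.81 and 0.65). With the reverse-label arrays turned, as would suit ratios deposited by dye, all 7 genes came near 0. CG5966 stood at 0.16 ± 0.15 and Lpin at 0.08 ± 0.15 in that reading. The other 5 genes lay between -0.0715 for Jabba and 0.0374 for ATPCL, with SE of 0.148 to 0.164, and bmm (-0.006) and apolpp (0.0175) changed sign. A pattern that keeps its sign under a dye swap is an effect of the RNA if the ratios were deposited by treatment and of the dye if they were deposited by dye, and these cannot be told apart here.

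**Figure D4:**
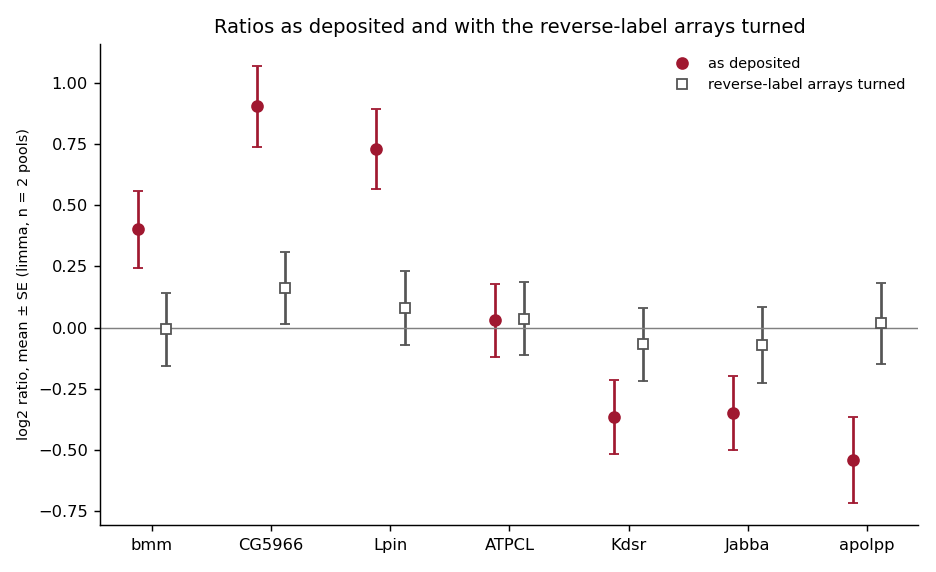
Mean log2 ratio ± SE (limma, n = 2 pools) of each lipid gene as deposited (filled circles) and with the reverse-label arrays turned in sign (open squares). The 6 genes away from 0 as deposited lie between -0.07 and 0.16 when turned.

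The wider lipid pathways were followed through 7 lists of 320 gene symbols, drawn up by function, although with earlier results of these data known. Of these, 45 genes other than the 7 above were measured under a single name. None of the 45 passed limma over all features in either direction, 0 had an unadjusted limma p under 0.05, and 22 lay above 0 and 23 below. Their median was -0.01, beside 0.01 over all named genes and 0.00161 over all features. They ranged from -0.298 for mag to 0.292 for LpR2, so each lay closer to 0 than bmm or Jabba. The 7 genes were picked with their ratios known, so this contrast follows from the choice, and nothing is read from it. Of the 45, 10 kept 1 sign on the 4 arrays (22.2%), beside 16.8% of all named genes.

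Of 5 other lipolysis genes, 2 lay above 0 and 3 below, with a median of -0.08. dob, a close relative of bmm, stood at 0.01 ± 0.15, with -0.10 in pool 1 and 0.13 in pool 3. mag (magro), a lipase of the gut, was below 0 on 4 of 4 arrays at -0.30 ± 0.15 (limma, adjusted p = 0.721). The diacylglycerol lipase gene inaE was above 0 on 4 of 4 arrays at 0.20 ± 0.15 (limma, adjusted p = 0.794). The predicted lipase genes CG13282 and CG6675 stood at -0.16 and -0.08.

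Of 9 other genes of triacylglycerol synthesis and lipid droplets, 5 lay above 0 and 4 below, with a median of 0.07. mdy, the diacylglycerol acyltransferase that completes triacylglycerol, stood at -0.25 ± 0.16, with -0.46 in pool 1 and -0.04 in pool 3. Agpat1, an acyltransferase upstream of lipin, stood at -0.14. Lsd-2, the perilipin that coats droplets beside Jabba, stood at 0.17 ± 0.19, and its pools were -0.20 and 0.54. The highest was Pcyt1, of phosphatidylcholine synthesis, at 0.20 ± 0.15. None of these kept its sign on 4 of 4 arrays.

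In fatty acid synthesis, elongation and desaturation, 2 of 8 other genes lay above 0 and 6 below, with a median of -0.15. The elongase-family gene CG5326 stood at -0.28 ± 0.16 and was below 0 on 4 of 4 arrays. CG9747, a predicted desaturase, had a mean of -0.26 that came from 1 array, at -1.56 on the Cy5 array of pool 1 and 0.31 on both arrays of pool 3. Cyt-b5-r stood at 0.20 and the elongase-family gene CG31523 at 0.07. Acat1, an acetyl-CoA acetyltransferase and the 1 measured gene of the fatty acid oxidation list, stood at -0.21 ± 0.15 and below 0 on 4 of 4 arrays.

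The transport partners of apolpp stood closer to 0 than apolpp itself, which was chosen with its ratio known. Mtp, the transfer protein that loads lipid onto apolipophorin, was below 0 on 4 of 4 arrays but at -0.13 ± 0.15. The lipophorin receptor genes stood at 0.29 ± 0.15 for LpR2 (limma, adjusted p = 0.723) and 0.02 ± 0.16 for LpR1. LpR2 was above 0 on 4 of 4 arrays, though at 0.00237 and 0.0282 on 2 of them. The fatty acid carrier genes Fatp1 and fabp stood at 0.04 and -0.02. Of these 5 genes 3 lay above 0 and 2 below, with a median of 0.02.

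Of 7 other sphingolipid genes, 3 lay above 0 and 4 below, with a median of -0.01 and a range of -0.17 to 0.14. The neutral sphingomyelinase gene nSMase stood at -0.17, the ceramidase gene CDase at -0.12, the ceramide kinase gene Cerk at 0.10 and SMSr, of the sphingomyelin synthase-related family, at 0.14. Among 10 regulators of lipid stores, 7 lay above 0 and 3 below, with a median of 0.05. foxo, a transcription factor of fasting known to act on bmm, stood at 0.17 ± 0.15, and Crtc, a coactivator of the fasting response, at 0.13 ± 0.16. The adiponectin receptor homologue AdipoR stood at -0.08 and the salt-inducible kinase Sik2 at -0.14. foxo split by dye, with 0.50 and 0.40 on the Cy3 arrays and -0.22 and -0.00279 on the Cy5 arrays.

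**Figure D5:**
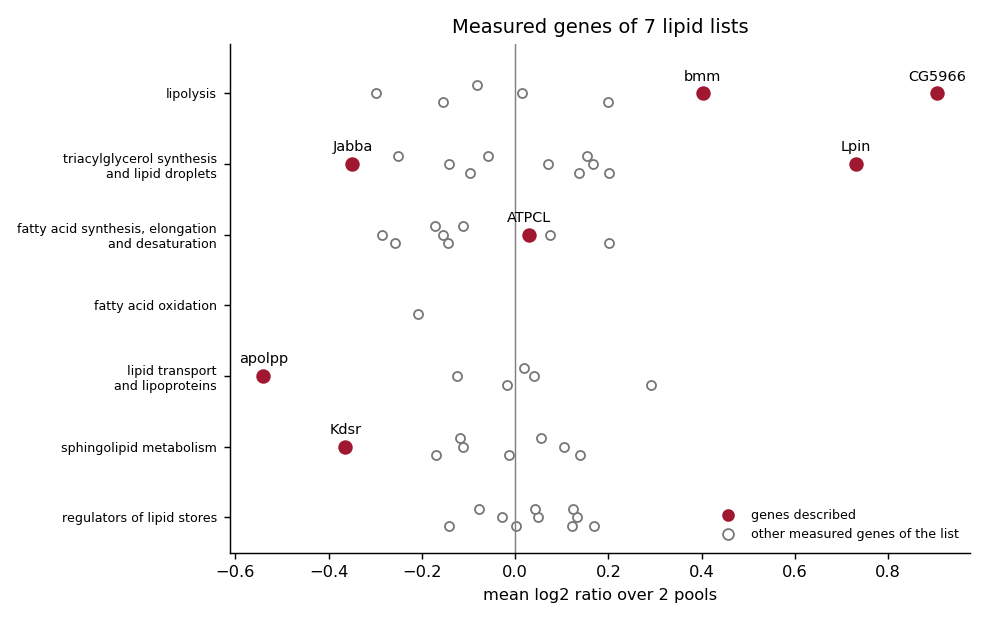
Mean log2 ratio over 2 pools (horizontal axis) of every measured gene in 7 lipid lists (rows), with the 7 genes described in red and the 45 others as open circles, offset vertically for legibility. The open circles lie between -0.298 and 0.292, and all the red points except ATPCL lie outside that range. The red genes were chosen with their ratios known.

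Genes with the most similar ratios were sought by Euclidean distance over the 4 arrays among the 2376 other named genes. Nearest to Lpin were Dp1 at a distance of 0.369, CG1902 at 0.386 and CG5966 at 0.453. Dp1, a KH-domain protein of the vigilin family, stood at 0.85 and 0.62 in pool 1 and at 0.32 and 0.44 in pool 3. Nearest to apolpp was CG8654 at 0.331, with -0.18 and -0.37 in pool 1 and -0.79 and -0.48 in pool 3. CG42750 and CG42688 followed at 0.621 and 0.688. A distance over 4 arrays of 2 pools says little about any pair of genes.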

How the data were processed

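The authors deposited log2 ratios per spot, 16896 per array with none missing, from 4 spotted arrays with 2 channels (2 pools, each with a dye swap). Scanner, background correction, normalization, filters, log base and numerator are not given in the sources used here. Signal over background was not used, and the number of arrays limits the precision.

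Arrays were centred on their median, which moved none by more than 0.00218. The platform annotation lists a single gene for 5666 spots, several for 152 and none for 11078. All 5666 matched NCBI RefSeq's gene table (GCF_000001215.4) by gene number, and 0 symbols changed. Coordinates were not used and no sequences are shown. Spots of a gene were averaged, unnamed spots stayed single (13607 features), and the 2 arrays of a pool were averaged. The mean was tested against 0, two-sided, with limma 3.58.1 (lmFit, eBayes; R 4.3.3) and Benjamini-Hochberg adjustment, on 1 residual and 8.19 prior degrees of freedom. p-values measure the spread between 2 pools, each treated together, and an exact sign test cannot go below 0.5. The script was run on simulated independent values with planted shifts, which checks the code only. That simulation held no dye effect and no doubt about the numerator.

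The genes and lists were chosen with earlier results of these data known. Besides the 7 genes, the 2 highest and 2 lowest others of each list are named (all where 6 or fewer were measured), and the 3 genes nearest to Lpin and to apolpp. Alternatives were turned reverse-label arrays, no centring, equal spread, medians over spots, the replicate block, named genes alone, single spots, and each array or pool left out.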

Additional observations from a re-analysis of the deposited data

Results flagged for a closer look

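Of 34 genes examined, 2 had a single array well outside the range of the rest. Chance alone flags about 1 in 20 genes, here 1.7. Neither was among the 7 lipid genes described above. On the Cy5 array of pool 1, Acat1 read -0.322 (others -0.175 to -0.162) and dob read -0.32 (others 0.1 to 0.158).

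In 5 of the 34 genes the arrays with extract in Cy3 and those with extract in Cy5 had opposite signs, and the difference was not tested. The list genes CG31522, Gpdh3 and Sik3, outside the 34, split in the same way. The share of all named genes that split so was not computed, so nothing is read from the count. The mean of the Cy3 arrays exceeded that of the Cy5 arrays by 0.557 for foxo (0.45 and -0.11) and by 0.223 for Fatp1 (0.15 and -0.07). The Cy3 minus Cy5 difference was -0.599 for CG6675 (-0.38 and 0.22), -0.401 for SMSr (-0.06 and 0.34) and -0.377 for LpR1 (-0.17 and 0.21). None of these 5 was among the 7 genes described above, which were chosen with their ratios known. A gene with 1 sign on all 4 arrays, as in 6 of the 7, cannot split by dye.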

How the results depend on the processing

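CG5966, Lpin, Kdsr and Jabba kept their sign in 12 of 12 alternatives, bmm and apolpp in 11. The exceptions were the turned reverse-label arrays, with bmm at -0.006 and apolpp at 0.0175. These 6 genes had 1 sign on every array, so only the turned reading could have changed it. The counts of kept signs therefore show no robustness. ATPCL changed sign without the Cy3 array of pool 1 (-0.0251) and without pool 3 (-0.00522), and ranged up to 0.0857 without the Cy5 array of pool 1. Turned, lipolysis stood at 0.0783, synthesis at 0.0168, storage at -0.0715 and transport at 0.0175. With 1 array or pool left out, lipolysis ranged from 0.597 to 0.709, synthesis from 0.104 to 0.161, storage from -0.452 to -0.245 and transport from -0.827 to -0.253. Leaving out a pool leaves no test. Of the 7 genes 0 passed limma, 1 with arrays scaled to equal spread (CG5966, limma adjusted p = 0.0278) and 2 with named genes tested alone (CG5966 and Lpin). The 7 were chosen with these same ratios known, so these calls support nothing about them. Of all 13607 features 6 passed, 42 at equal spread, 12 with the replicate block and 0 turned. Of the 16896 single spots 19 passed, and of the 2377 named genes tested alone 10 did. Without 1 array, 0 (Cy3 array of pool 3) to 11 (Cy5 array of pool 1) features passed. With the replicate block 0 of the 7 genes passed. Their means were unchanged, which is fixed by 2 arrays per pool and shows nothing. The correlation estimated between arrays of a pool was -0.244. The numbers 1 and 3 already pair the channels of an array. List medians here include the 7 genes. Turned, they were 0.0343 for oxidation, 0.0374 for fatty acid synthesis, -0.0227 for lipolysis, -0.0748 for sphingolipids and -0.0363 for triacylglycerol, against -0.208, -0.144, 0.0148, -0.0623 and 0.0696 as deposited. The transport median of 0.000327 became -0.0556 as a mean. Without 1 array the medians ranged from -0.0877 to 0.0462 for transport, with -0.0578, -0.0107 and -0.0877 below 0, from -0.0466 to 0.00712 for sphingolipids, from -0.0571 to 0.0601 for triacylglycerol, from 0.000373 to 0.125 for lipolysis, from -0.14 to -0.0297 for fatty acid synthesis, from 0.00603 to 0.073 for regulators (0.0463 with all arrays) and from -0.245 to -0.17 for oxidation. The causes were not tested.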
